A study of Glycine max with 23 samples.

Results

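The fatty acid desaturase genes examined were 8 soybean genes: FAD2-1A, FAD2-2, FAD2-3, FAD3B and FAD3C, whose enzymes act in the endoplasmic reticulum (ER), and FAD6.1, FAD7-2 and FAD8.2, whose enzymes act in the plastid. They were taken by gene symbol from the array's probe annotation, wherever a probe set was assigned to 1 gene. This gave 13 probe sets, 8 for the ER forms and 5 for the plastid forms, of the 37593 soybean probe sets on the array, which cover 6031 genes by at least 1 probe set assigned to that gene alone. Other desaturase copies of the soybean genome were not analysed here, and probe sets whose names end in s_at can respond to near-identical copies. Such are the only probe sets of FAD2-3 and FAD7-2 and the dimmer probe set of FAD2-2.

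Desaturases put double bonds into fatty acids. In the ER, FAD2 enzymes turn oleic acid into linoleic acid and FAD3 enzymes turn linoleic into linolenic acid, on the phospholipids from which seed oil is later built. In the plastid, FAD6 takes the first of these steps and FAD7 and FAD8 the second, mostly on the lipids of plastid membranes. In soybean, FAD2-1A is known as a form of the developing seed and FAD2-2 as a form found throughout the plant.

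Transcript levels were measured with the 1-colour Affymetrix Soybean Genome Array in the cultivar Asgrow A3237, kept at 22 °C under days of 16 h light and 8 h dark, with no mutant or transgene named in the labels. From paraffin sections of heart-stage seeds, 8 compartments were captured by laser. These were the embryo proper, its anchoring stalk (the suspensor) and the endosperm, with 3 arrays each, and the endothelium, inner integument, outer integument, epidermis and hilum of the maternal seed coat, with 2 arrays each. Whole heart-stage seeds and young trifoliate leaves, with 2 arrays each, were ground rather than captured and were extracted with another reagent, so that capture and tissue cannot be told apart when a captured compartment is set against leaf or whole seed. The labels call the 23 arrays biological replicates without naming plants, so p-values measure the spread between these samples.

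Values are signals in linear units. A probe set counted as above background on an array where its signal exceeded the 95th percentile of the array's 23350 probe sets for soybean pathogens. That background was 86.3 to 231.4 on 21 arrays, 420.1 on suspensor replicate 1 and 404.9 on endosperm replicate 1. Endosperm replicate 3 was captured with another microscope model. Between replicate arrays the median correlation was r = 0.92 (0.79 to 0.96). Integument marker genes (AGL1L, MADS28 and SEP1) summed to 18396 to 35413 on the seed coat arrays, to 1047 to 3856 on the suspensor arrays, to 270 to 864 on the endosperm arrays and to 122 to 178 on the embryo proper arrays. Embryo markers (LEC1-A, H1 and PHANa) summed to 21557 to 24330 in the embryo proper to 9861 to 14870 in the suspensor and to 3310 to 5229 in the endosperm. The suspensor sum was nearly all LEC1-A (mean 11475, against 4937 in the embryo proper), with PHANa at 228 (9809) and H1 at 270 (7766). ANR1, the marker taken for the endothelium, read 517 to 6692 there and 12850 to 19443 in the hilum, so it did not set the endothelium apart. No marker was fixed for the endosperm or the suspensor. The integument and embryo markers were known from earlier results of these data, so their levels are no independent check of the captures.

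Of the 13 probe sets, 10 were tested, since their signal exceeded background throughout at least 1 group, and every gene had at least 1 tested probe set. FAD2-1A passed only through the leaf arrays, and FAD6.1 and FAD2-3 only through leaf and whole seed. The filter therefore favoured high levels of these genes there. The mean linear signal of FAD2-3 was 318 in the endosperm, 279 in leaf and 166 in whole seed, with 1 endosperm array below background. The endosperm mean rests on replicate 1 (598), an array of high background. The other endosperm arrays (227 and 129) lay below both leaf arrays (308 and 249). On the log2 scale used for the tests leaf was the higher, by 0.07, which was not called (adjusted p = 0.95, limma). Further probe sets of FAD2-1A, FAD3C and FAD8.2, 1 for each, were not tested, being above background on 2, 0 and 1 of 23 arrays. Differences are given as log2(signal + 16) with standard errors from a limma model of all 23 arrays, with p-values adjusted by Benjamini-Hochberg over the 25686 tested probe sets. Differences of at least 2-fold with an adjusted p under 0.05 are described as called. In a moderated F test over the 8 captured compartments, 6 of the 8 desaturase genes (75%) were called, beside 52.6% of all tested probe sets. FAD2-1A (adjusted p = 0.86) and FAD6.1 (adjusted p = 0.22) were not. Taking the 28 pairs of captured compartments gene by gene, 62 of 224 differences were called (27.7%), beside 17.0% for all tested probe sets. Of the 62, 17 belonged to FAD3C, 16 to FAD8.2, 9 to FAD7-2, 8 to FAD2-2, and 6 each to FAD2-3 and FAD3B.

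**Figure D1:**
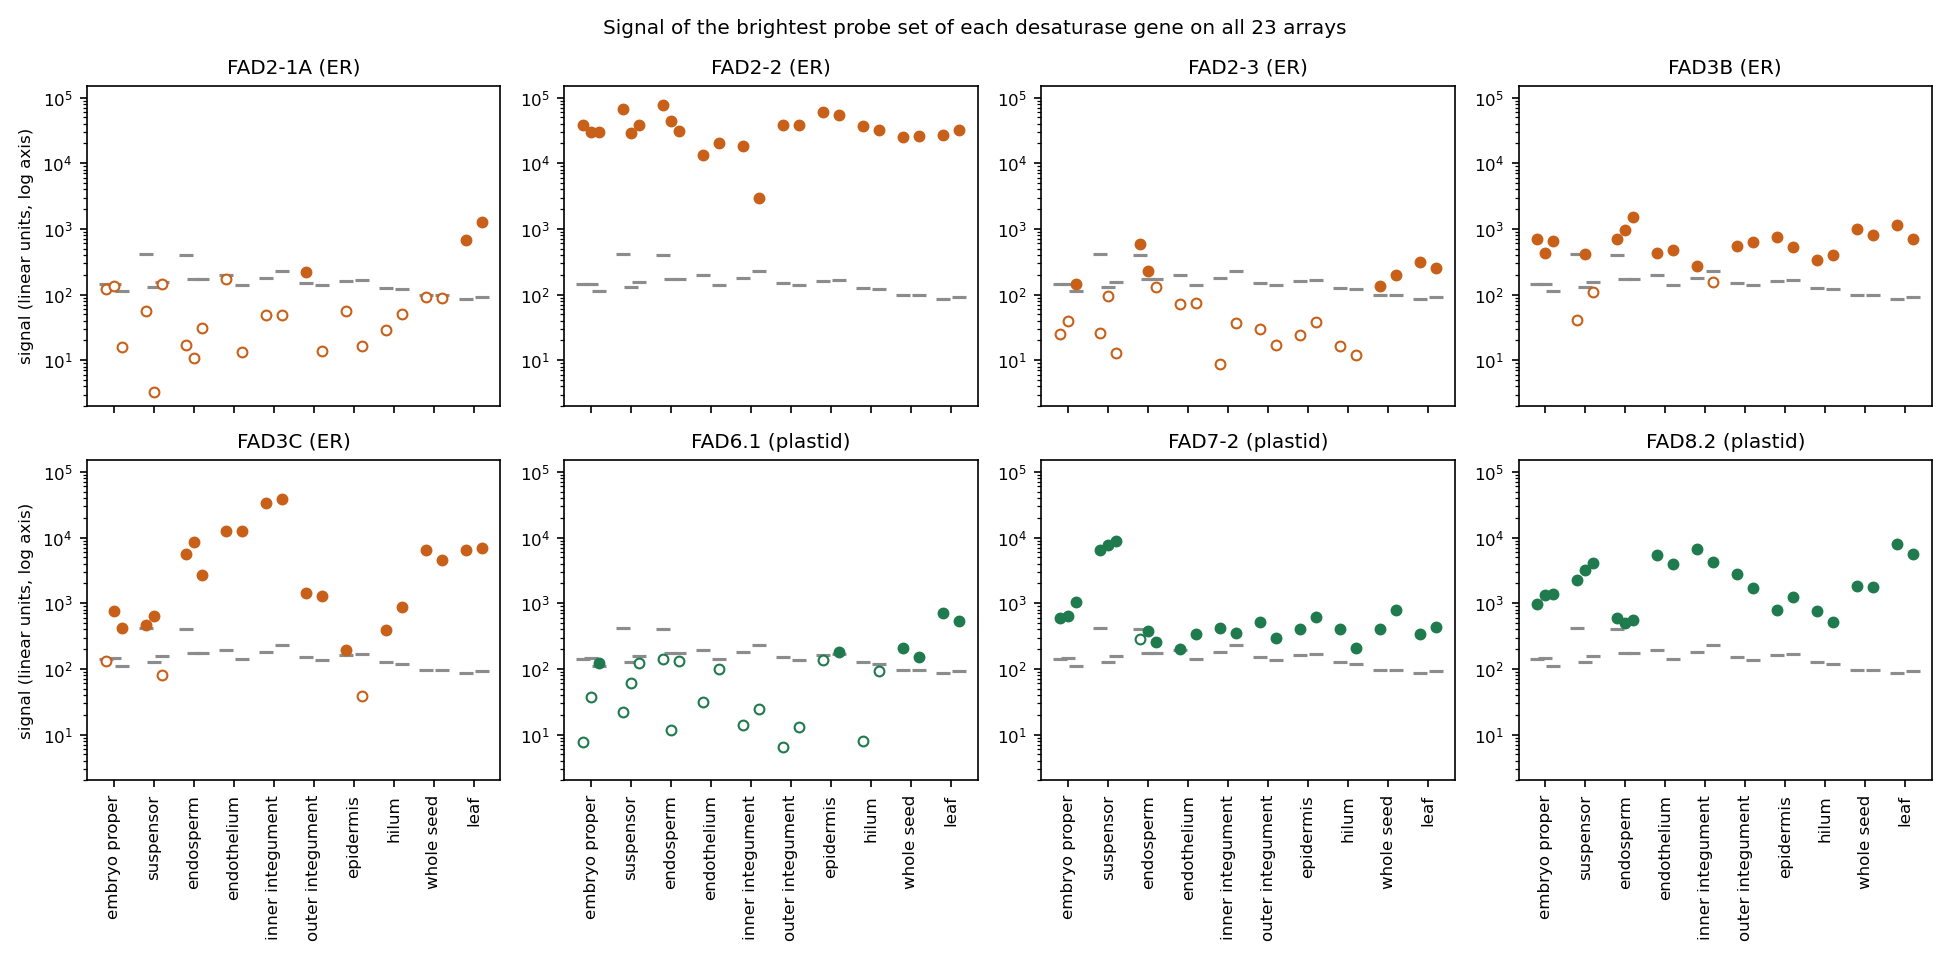
Signal (linear units, log axis) of the brightest probe set of each gene on all 23 arrays, by group; filled points are above background, open points are not, and grey dashes are each array's background. FAD7-2 stands highest on the 3 suspensor arrays (6499 to 8964) and FAD3C on the 2 inner integument arrays (33433 and 38416), while FAD2-1A is above background on both leaf arrays and on 1 other array.

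FAD3C, an ER enzyme of the linolenic acid step, varied most among the captured compartments. Its signal was 33433 and 38416 on the inner integument arrays and 12588 and 12422 on the endothelium arrays. On the endosperm arrays it was 5552, 8477 and 2710. These 3 compartments lay above every other captured array. The outer integument gave 1434 and 1300, and the hilum gave 386 and 862. The embryo proper read 130, 750 and 418, the suspensor 460, 635 and 81.0, and the epidermis 193 and 38.8, with 1 array in each of these 3 groups below background. The ground samples read 6473 and 4507 in whole seed and 6396 and 6902 in leaf.

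The mean signal of FAD3C was thus 35925 ± 3524 (SD, n = 2) in the inner integument and 116 ± 109 (SD, n = 2) in the epidermis, a difference of 8.39 ± 0.78 on the log2 scale (adjusted p = 1.2e-07, limma). The inner integument was called above 8 of the 9 other groups. Its margin over the endothelium, 1.52 ± 0.78, was not called (adjusted p = 0.27). In the order inner integument, endothelium, leaf, whole seed, endosperm, outer integument, hilum, embryo proper, suspensor, epidermis, no neighbouring pair was called. The arrays nonetheless lay apart between inner integument and endothelium, and between endothelium and leaf. They also lay apart between endosperm and outer integument (1.87, adjusted p = 0.066), and between outer integument and hilum. The second FAD3C probe set ranged from 4.2 to 98.7 and was below background on all 23 arrays, so the pattern rests on a single probe set.

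FAD3B, the other ER enzyme of this step, followed a different order. It read 695, 975 and 1524 in the endosperm, 1161 and 710 in leaf, and 990 and 819 in whole seed. The embryo proper gave 693, 422 and 653. The suspensor gave 40.4, 417 and 109, with only the middle value above background, and the inner integument gave 271 and 155, with the second below it. The other seed coat arrays lay between 338 and 753. FAD3B was therefore lowest where FAD7-2 was highest, in the suspensor, and low in the inner integument, where FAD3C was highest. The suspensor was called below 7 other groups, by 1.69 to 2.82 on the log2 scale (adjusted p from 0.00039 to 0.048). No neighbouring pair in the order of the 10 means was called.

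FAD2-2, an ER enzyme of the linoleic acid step, was above background on all 23 arrays in both of its tested probe sets. The brighter probe set read 38351, 29638 and 29453 in the embryo proper, 66503, 28934 and 37879 in the suspensor, and 76926, 44448 and 31183 in the endosperm. Among seed coat regions it was highest in the epidermis (61281 and 54634). It was lowest in the endothelium (13389 and 20429) and the inner integument (18158 and 2990), where the arrays of the inner integument differed widely. Outer integument and hilum arrays lay between 31926 and 38469, and the ground samples between 25079 and 31579. The inner integument was called below every other group except the endothelium.

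The other FAD2-2 probe set put the same seed coat regions lowest, at 862 and 1584 in the endothelium and 1300 and 1156 in the inner integument. It read 3748 and 4136 in the epidermis, close to the outer integument (3861 and 4097) and the hilum (4331 and 3727). In leaf it read 12155 and 13245, above all other arrays, and all 9 other groups were called below leaf, with differences from -1.28 to -3.42. The brighter probe set showed no such rise in leaf. Only the dimmer probe set has a name ending in s_at. Over the 23 arrays the probe sets correlated with r = 0.41, so what FAD2-2 did outside the low regions depended on the probe set.

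**Figure D2:**
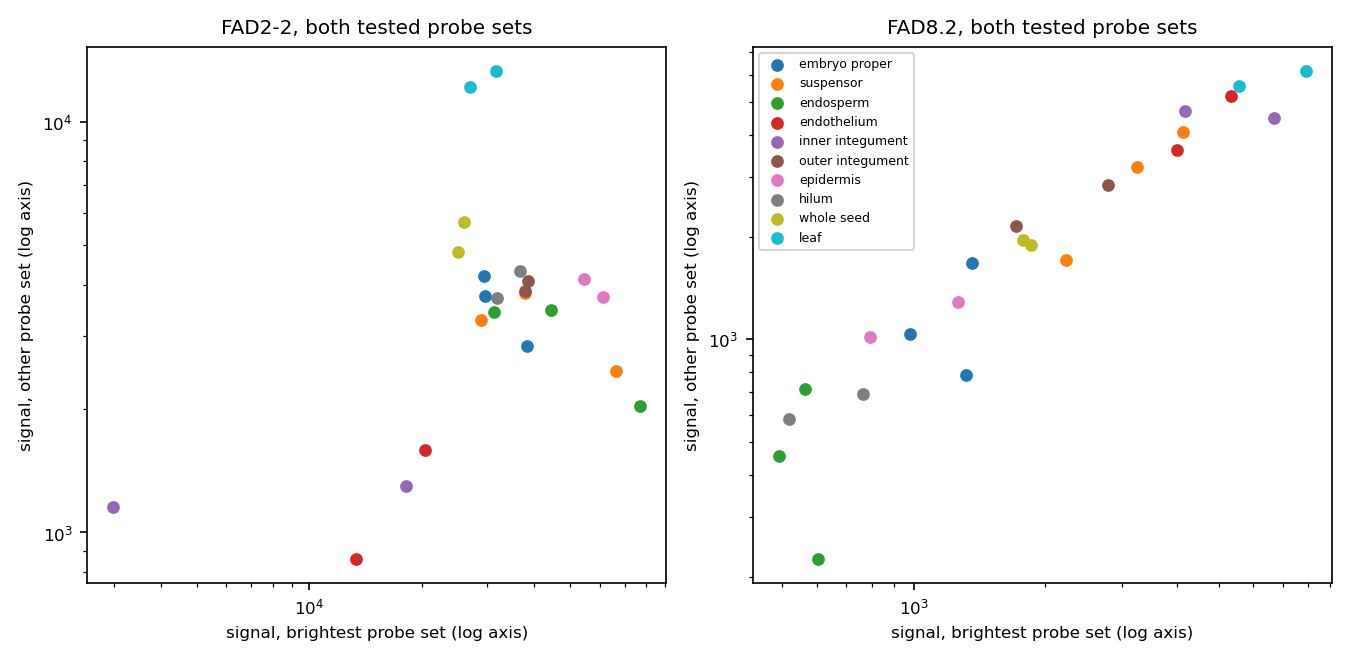
Signals (log axes) of both tested probe sets of FAD2-2 and of FAD8.2, with 1 point per array coloured by group. For FAD8.2 the probe sets run together (r = 0.95), while for FAD2-2 (r = 0.41) both place inner integument and endothelium low and only the dimmer probe set sets the 2 leaf arrays apart.

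FAD2-1A and FAD2-3 were near background in most of the seed. FAD2-1A read 686 and 1286 in leaf and 92.4 and 87.1 in whole seed, both below background. Of the 19 captured arrays only 1 of the outer integument was above background, at 220. Its second probe set gave 19.4 and 96.2 in leaf, so the leaf level was not seen with both. FAD2-3 read 598, 227 and 129 in the endosperm, 2 of them above background, 133 and 199 in whole seed and 308 and 249 in leaf. Elsewhere a single array, of the embryo proper (143), was above background.

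FAD7-2, a plastid enzyme of the linolenic acid step, marked the suspensor. It read 6499, 7704 and 8964 there (mean 7722 ± 1233, SD, n = 3) and 589, 643 and 1059 in the embryo proper. The remaining groups lay between 201 and 779, with endosperm at 282, 375 and 256. No array of another group came near those of the suspensor, and the suspensor was called above all 9 other groups, by 3.35 to 4.79 on the log2 scale (adjusted p from 1.4e-08 to 2.6e-06). Apart from these, the only called pairs put the embryo proper above the endosperm (1.25) and above the endothelium (1.45). The FAD7-2 pattern rests on a single probe set, whose name ends in s_at, so near-identical copies may add to it.

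FAD8.2, the other plastid enzyme of this step, was highest in leaf (7905 and 5562), the inner integument (6680 and 4192) and the endothelium (5342 and 4018). The suspensor read 2231, 3238 and 4130, the outer integument 2782 and 1715, and whole seed 1859 and 1781. The embryo proper gave 979, 1315 and 1361 and the epidermis 793 and 1261. The hilum (765 and 517) and the endosperm (602, 491 and 562) were lowest. No neighbours in this order were called. Of the 28 pairs of captured compartments 16 were called for FAD8.2, beside 17.0% for all tested probe sets. The second probe set followed the same order of high and low groups (r = 0.95 over arrays).

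FAD6.1, the plastid enzyme of the linoleic acid step, read 713 and 538 in leaf and 211 and 150 in whole seed. In captured tissue only 1 array of the epidermis (180) and 1 of the embryo proper (122) were above background. The leaf level was at least 2.57-fold to at least 4.55-fold above the 6 captured compartments that were below background on every array. The filter favours that direction for this gene. Leaf was not called above whole seed (1.71 ± 0.93, adjusted p = 0.28), where both arrays were above background, or above the epidermis. The difference from whole seed was called by limma under 2 alternatives, array weights (adjusted p = 0.039) and only the arrays compared (adjusted p = 0.0087).

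**Figure D3:**
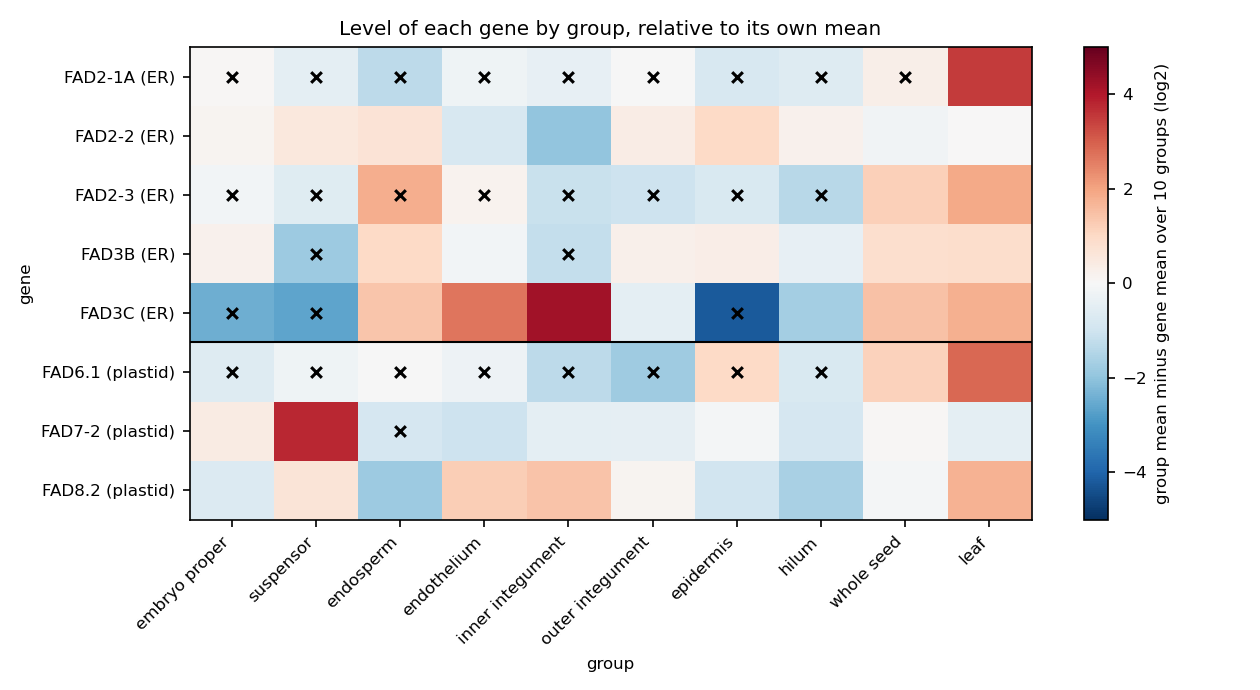
Mean log2(signal + 16) of each gene in each of the 10 groups minus the gene's own mean over the groups; crosses mark groups in which at least 1 array was below background, and the line separates ER from plastid forms. FAD3C is highest in inner integument and endothelium, FAD7-2 in the suspensor, and FAD2-2 is lowest in inner integument and endothelium.

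Between embryo proper and suspensor, 3 of the 8 genes were called (37.5%), beside 23.1% of all tested probe sets. Of the plastid forms, 2 of 3 were lower in the embryo proper, FAD7-2 by 10.2-fold (log2 -3.35 ± 0.39, adjusted p = 1.6e-06) and FAD8.2 by 2.55-fold (-1.35 ± 0.32, adjusted p = 0.0028). Of the ER forms, 1 of 5 was higher there, FAD3B by 4.09-fold (2.03 ± 0.53, adjusted p = 0.0067). The arrays of the embryo proper and the suspensor did not overlap for any of these 3 genes, though for FAD3B the gap was from 417 to 422. FAD3B moved to 1.35 without suspensor replicate 1 and to 2.82 without suspensor replicate 2. It was not called with the arrays of those groups alone (2.03, adjusted p = 0.086; alternatives ranged from 0.00011 to 0.086). FAD3C showed no difference beyond its spread (0.23 ± 0.64, adjusted p = 0.84), nor did FAD2-2 (-0.37 ± 0.44, adjusted p = 0.59). The median over the ER forms was 0.47 and over the plastid forms -1.35, beside 0.07 for all tested probe sets. Integument markers were 1047 to 3856 in the suspensor and 122 to 178 in the embryo proper, and their part in these results was not tested. In captured tissue, fewer cells of a type and less RNA per cell cannot be told apart.

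Between the endosperm and the mean of embryo proper and suspensor, 5 of 8 genes were called (62.5%), beside 19.2% of all tested probe sets. Of the ER forms 3 of 5 were called higher in the endosperm and of the plastid forms 2 of 3 lower, with ranges that overlapped (ER -1.08 to 3.91, plastid -2.93 to 0.43). FAD3C was 15.0-fold higher (3.91 ± 0.55, adjusted p = 1.6e-05), FAD2-3 4.6-fold (2.20 ± 0.56, adjusted p = 0.0062) and FAD3B 3.51-fold (1.81 ± 0.46, adjusted p = 0.0062). The FAD2-3 fold is an estimate against a level mostly below background, with 1 of 6 reference arrays and 2 of 3 endosperm arrays above it. FAD7-2 was 7.60-fold lower (-2.93 ± 0.34, adjusted p = 1.2e-06) and FAD8.2 3.45-fold lower (-1.79 ± 0.27, adjusted p = 4.5e-05). FAD2-2 (0.37), FAD2-1A (-1.08) and FAD6.1 (0.43) were not called. The endosperm arrays stood clear of the other 6 for FAD3C, FAD7-2 and FAD8.2, and by 694.8 against 693.4 for FAD3B. For FAD2-3 the groups overlapped, and the call was lost without endosperm replicate 1, an array of high background (1.63, adjusted p = 0.063). Its adjusted p ranged from 0.0022 to 0.073 over the alternatives. The suspensor enters the reference side here, so the FAD7-2 value shares arrays with the comparison of embryo proper and suspensor. The embryo proper alone was also above the endosperm in FAD7-2, by 1.25, and in FAD8.2, by 1.11, and below it in FAD3C and FAD2-3 (log2 -3.79 and -1.97). For FAD3B the embryo proper alone was not called below the endosperm (-0.79 ± 0.53, adjusted p = 0.32), so that call rests on the low suspensor in the reference. The median was 1.81 over the ER forms and -1.79 over the plastid forms, beside 0.16 for all tested probe sets. These medians are the FAD3B and FAD8.2 values themselves, and both take in the suspensor through the reference.

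**Figure D4:**
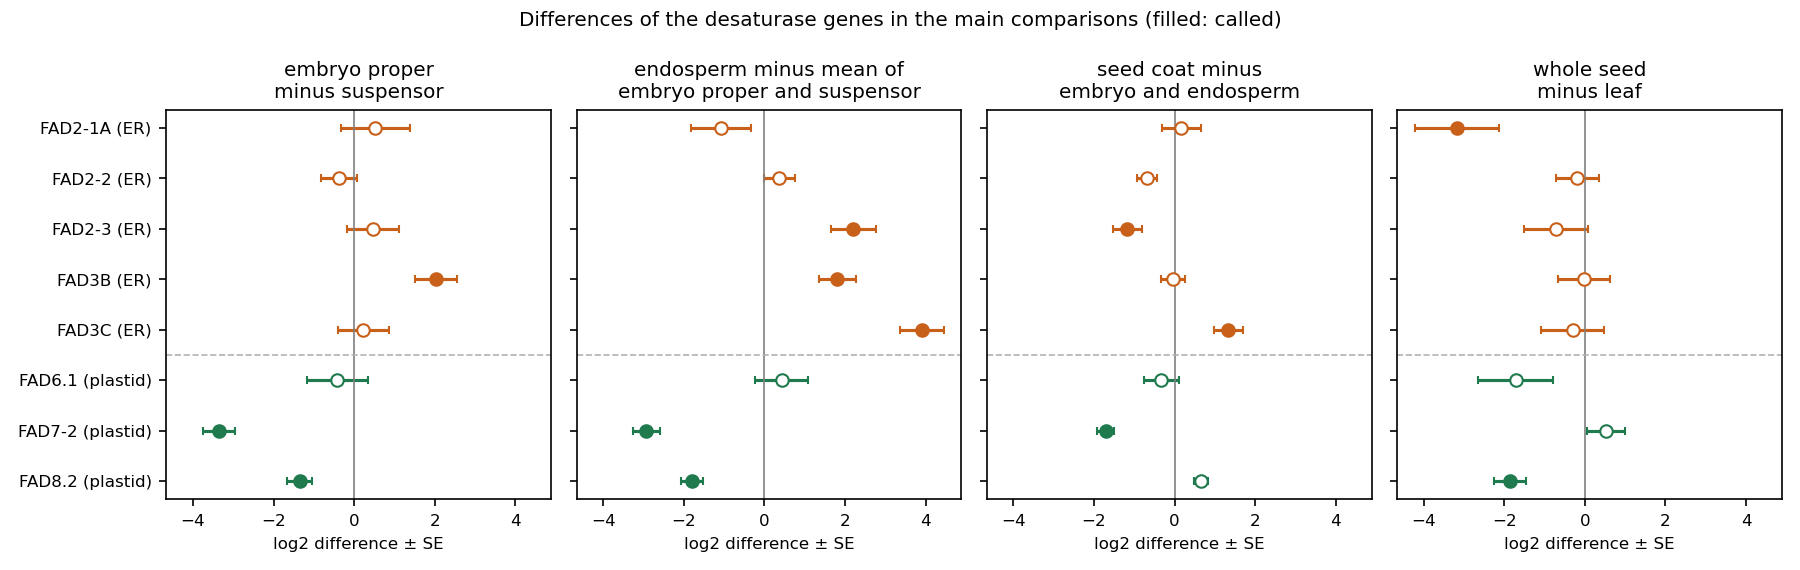
Log2 differences with standard errors for the 8 genes in 4 comparisons, ER forms above the dashed line and plastid forms below it; filled points were called. In the endosperm comparison the called ER forms lie right of 0 (1.81 to 3.91) and the called plastid forms left of it (-2.93 and -1.79).

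Between the 5 seed coat regions together and the 3 filial compartments, 3 of 8 genes were called (37.5%), beside 21.5% of all tested probe sets. FAD3C was 2.51-fold higher in the seed coat (1.33 ± 0.36, adjusted p = 0.0057), a call that was lost with the replicate number as a block. FAD7-2 was 3.28-fold lower (-1.71 ± 0.22, adjusted p = 2.3e-06). FAD2-3 was called lower (-1.17 ± 0.36, adjusted p = 0.014), but no seed coat array and only 3 of 9 filial arrays were above background, so the difference is largely between background readings and gives no fold. For all 3 genes the arrays of both sides overlapped, since FAD3C spanned the full range within the seed coat and FAD7-2 was high in the suspensor only. FAD2-3 fell just under 2-fold without embryo proper replicate 3 (-0.98), suspensor replicate 2 (-0.99) or endosperm replicate 1 (-0.98). FAD8.2 (0.66 ± 0.18, adjusted p = 0.0055) and FAD2-2 (-0.69 ± 0.25, adjusted p = 0.032) passed the p threshold but not the 2-fold limit. The medians were -0.04 over the ER forms and -0.33 over the plastid forms, beside -0.03 for all tested probe sets, and so did not part by place.

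Within the seed coat, FAD3C and FAD8.2 were higher in the inner regions and lower in the epidermis and hilum. In the inner integument against the mean of the other 4 regions, 3 of 8 genes were called (37.5%), beside 18.8% of all tested probe sets. FAD3C was 35.0-fold higher (5.13 ± 0.62, adjusted p = 3e-06), FAD8.2 3.30-fold higher (1.72 ± 0.31, adjusted p = 0.00027) and FAD2-2 4.53-fold lower (-2.18 ± 0.42, adjusted p = 0.00069). The FAD2-2 value was -3.48 without inner integument replicate 1 and -0.88 (adjusted p = 0.18) without replicate 2. Over its alternatives the adjusted p ran from 3e-06 to 0.18, while the other FAD2-2 probe set gave -1.25 (adjusted p = 0.0019). SCB1, taken as a marker of the seed coat surface, read 111767 to 162008 on the inner integument arrays and 18027 to 21406 on those of the epidermis, and its bearing on these values was not tested.

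In the endothelium 2 of 8 genes were called (25%), beside 6.53% of all tested probe sets. FAD3C was 9.40-fold higher (3.23 ± 0.62, adjusted p = 0.0016) and FAD8.2 2.79-fold higher (1.48 ± 0.31, adjusted p = 0.0032). Without endothelium replicate 1 neither was called, at 3.22 (adjusted p = 0.053) and 1.28 (adjusted p = 0.16). Over the alternatives the adjusted p of FAD3C ranged from 0.00031 to 0.053 and that of FAD8.2 from 0.001 to 0.16. FAD2-2 was not called with its brighter probe set (-0.72, adjusted p = 0.42), though it was without inner integument replicate 2 (-1.05, adjusted p = 0.036). Its other probe set was called lower (-1.33, adjusted p = 0.0029).

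In the epidermis 3 of 8 genes were called (37.5%), beside 7.88% of all tested probe sets. FAD3C was 40.9-fold lower (-5.35 ± 0.62, adjusted p = 5.3e-06), estimated against a level that was above background on 1 of 2 arrays. It was -6.32 without epidermis replicate 1 and -4.39 without replicate 2. FAD8.2 was 2.39-fold lower (-1.26 ± 0.31, adjusted p = 0.011), and FAD2-2 was 2.89-fold higher (1.53 ± 0.42, adjusted p = 0.025). Neither of these was called with the gene's other probe set (-1.04, adjusted p = 0.092, and 0.84, adjusted p = 0.059). FAD8.2 was not called without epidermis replicate 1 (-0.93, adjusted p = 0.30; alternatives from 0.0035). FAD2-2 was not called without replicate 1 (1.45, adjusted p = 0.25) or replicate 2 (1.62, adjusted p = 0.17), its alternatives ranging from 0.00033 to 0.25.

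In the hilum 2 of 8 genes were called (25%), beside 9.09% of all tested probe sets. FAD8.2 was 4.22-fold lower (-2.08 ± 0.31, adjusted p = 8.8e-05), and its hilum arrays lay below those of every other region. FAD3C was 4.81-fold lower (-2.26 ± 0.62, adjusted p = 0.021), with hilum arrays between those of the epidermis and the outer integument. FAD3C was not called without hilum replicate 1 (-1.70, adjusted p = 0.38) or replicate 2 (-2.83, adjusted p = 0.069), its alternatives ranging from 0.0017 to 0.38. In the outer integument 0 of 8 genes were called by limma, beside 7.01% of all tested probe sets, and 0 had an unadjusted p under 0.05. Without inner integument replicate 1, FAD2-2 was called higher in the outer integument (1.11, adjusted p = 0.024). The 5 comparisons share their arrays, each region being part of the reference of the others.

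**Figure D5:**
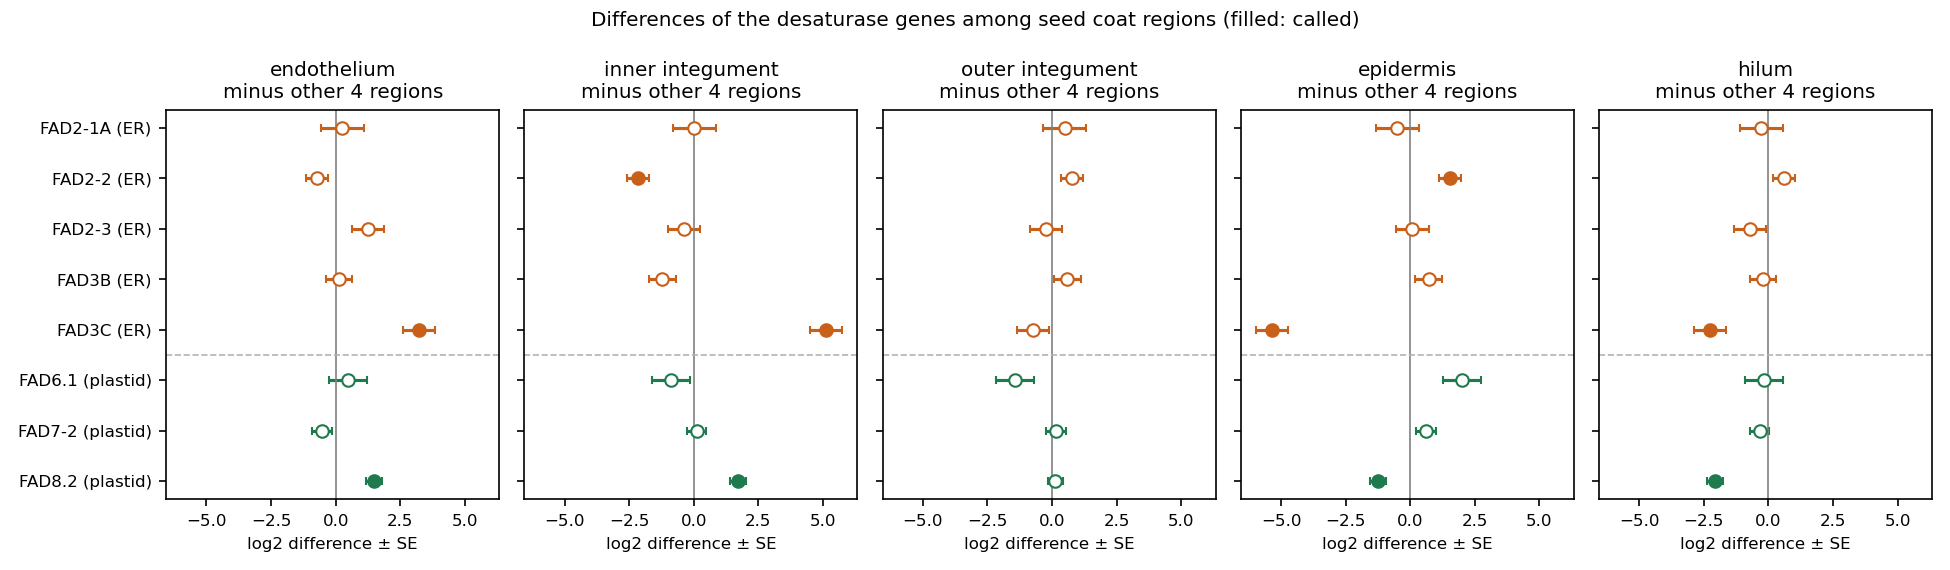
Log2 differences with standard errors of the 8 genes in each seed coat region against the mean of the other 4; filled points were called. FAD3C runs from 5.13 in the inner integument to -5.35 in the epidermis, and FAD8.2 from 1.72 in the inner integument to -2.08 in the hilum.

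Between whole seed and leaf, 2 of 8 genes were called (25%), beside 13.2% of all tested probe sets. FAD2-1A was at least 8.43-fold higher in leaf (adjusted p = 0.048), its mean there being set against the whole seed background. It passed the filter through leaf alone, which favours that direction, so only FAD8.2, 1 of 8, was called free of the filter. FAD8.2 was 3.62-fold higher in leaf (whole seed minus leaf -1.86 ± 0.39, adjusted p = 0.0019). The FAD2-1A call was lost on leaving out any of the 4 arrays (adjusted p from 0.11 to 0.29, and from 0.0011 to 0.29 over all alternatives). FAD3B (-0.01 ± 0.65, adjusted p = 0.99), FAD3C (-0.30 ± 0.78, adjusted p = 0.89), FAD2-3 (-0.72 ± 0.79, adjusted p = 0.67) and FAD7-2 (0.53, adjusted p = 0.58) were not called. FAD2-2 was not called with its brighter probe set (-0.19) and was called with the other (-1.28 ± 0.34, adjusted p = 0.014). The whole seed value of FAD3C, 5490 ± 1390 (SD, n = 2), averages over compartments that ranged from 116 to 35925.

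Across the 10 group means, the levels of FAD2-2 and FAD3C ran against each other (Pearson r = -0.78, and -0.81 over the 8 captured means), as did those of FAD2-2 and FAD8.2 (-0.63 and -0.72). With the other FAD2-2 probe set, which is high in leaf, the values over the 10 means were -0.32 with FAD3C and -0.09 with FAD8.2, and over the 8 captured means -0.85 and -0.73. FAD3C and FAD8.2, an ER and a plastid form of the same step, had moderate values (0.53 and 0.50). Higher over the 10 means were FAD2-3 with FAD6.1 (0.71) and FAD3B (0.69), and FAD2-1A with FAD6.1 (0.67) and FAD8.2 (0.61). Over the 8 captured means, without leaf and whole seed, these pairs gave 0.37, 0.56, -0.58 and 0.57 in the same order. Each of these pairs holds a gene near background in most of the seed. Of the forms of like place and step, FAD3B and FAD3C gave r = 0.10 and FAD7-2 and FAD8.2 gave 0.14. Among the FAD2 genes, also of like place and step, r over the 10 means ran from -0.12 to 0.47. These values describe means measured on the same 23 arrays and carry no test. Among 843 other genes with an informative symbol, those whose group means followed FAD3C most closely were BMY2 (r = 0.93), BZIP53B (0.88) and NAC19 (0.85). For FAD7-2 they were PM9 (0.96), MP2 (0.93) and PM32 (0.92), and for FAD8.2 SGR1 (0.90), COR1 (0.86) and WRKY57 (0.86). FAD2-2 was followed by PAD4 (0.83), RPL2 (0.83) and SMT2-2 (0.80), and FAD3B by HEMG (0.90), MYB143 (0.84) and ACCB-1 (0.82). The closest to FAD2-1A was CYP53 (0.91), to FAD6.1 NIP1-8 (0.93) and to FAD2-3 SEOM (0.94). For FAD2-1A, FAD6.1 and FAD2-3 most group means are largely background readings, which limits what these last values say of pattern in the seed.

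Other lipid genes were taken from a list of symbols, of which 17 genes had a probe set of their own and were tested: 9 of plastid fatty acid synthesis, 5 of lipid assembly, 1 of beta-oxidation and 2 regulators. Between embryo proper and suspensor 4 of the 17 were called higher and 2 lower in the embryo proper (median 0.20), beside 23.1% called of all tested probe sets. The subunits of plastid acetyl-CoA carboxylase ACCC-3 (1.02, adjusted p = 0.0035) and ACCB-2 (1.50, adjusted p = 0.016) were higher there, opposite to FAD7-2 and FAD8.2. SACPD-C, a stearoyl-ACP desaturase that makes oleic acid, was at least 2.10-fold higher (adjusted p = 0.017), with 2 of 3 embryo proper arrays above background. FAT1 (-1.21, adjusted p = 0.00031) and DGD1, which makes galactolipid of plastid membranes (-1.31, adjusted p = 0.023), were lower.

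In the endosperm 0 of the 17 were higher and 2 were lower than in embryo proper and suspensor (median 0.15, with 1 higher and 3 lower at an unadjusted p under 0.05 in limma), beside 3 higher and 2 lower of the 8 desaturases and 19.2% called of all tested probe sets. The lower genes were SAD2, named as a stearoyl-ACP desaturase (-1.71, adjusted p = 2.9e-05), and LEC1-A, a regulator of embryo development (-2.01, adjusted p = 0.0046). In the seed coat 0 were higher and 6 lower than in the filial compartments (median -0.65, with 1 higher and 10 lower at an unadjusted p under 0.05 in limma), while all tested probe sets gave 3097 higher and 2415 lower (21.5%). LEC1-A was at least 26.9-fold lower (adjusted p = 9.2e-12), and ACCC-2 changed by -1.45 (adjusted p = 6.6e-08). WRI1B, of the WRINKLED1 family of oil regulators, was also lower (log2 -4.37, adjusted p = 3.6e-08). Its value is an estimate against a level above background on only 1 of 10 seed coat arrays. FAD3C was called the other way, higher in the seed coat, though not with the replicate number as a block.

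Between whole seed and leaf 2 of the 17 were higher in whole seed and 1 was lower (median -0.04), beside 13.2% called of all tested probe sets. SACPD-C was at least 9.33-fold higher (adjusted p = 0.015) and LEC1-A at least 2.66-fold higher (adjusted p = 0.0033), while ACCC-2 was lower (-1.13, adjusted p = 0.018). Among seed coat regions the inner integument, with 2 of the 17 called beside 18.8% of all, had ACCB-2 lower (-2.27, adjusted p = 0.00053) and ACCA-1 at least 1.73-fold lower (adjusted p = 0.0018), in the region where FAD3C and FAD8.2 were highest. SACPD-C was higher in the outer integument (3.81 ± 0.86, adjusted p = 0.0066) and lower in the endothelium (at least 1.57-fold, adjusted p = 0.043) and the hilum (at least 2.17-fold, adjusted p = 0.014). In the epidermis 0 of the 17 were called by limma, beside 7.88% of all tested probe sets, and 0 had an unadjusted p under 0.05.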

How the data were processed

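The authors deposited linear intensities, with 1 value for each probe set on each array. The submitters' processing notes name GCOS 1.3, and how probes were combined into a signal was not stated there. The mean of each array after trimming 2% at each end was 498.6 to 500.1, so signals were not scaled again. All columns were mapped to samples by title (0 left over).

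From these values log2(signal + 16) was computed, which understates the change of dim genes. Using limma 3.58.1 under R 4.3.3, a model of 10 groups was fitted to the 23 arrays (lmFit, eBayes with trend, 13 residual degrees of freedom, 2-sided contrasts, Benjamini-Hochberg over 25686 probe sets above background throughout at least 1 group). The number of arrays, 2 or 3 a group, limits the precision. The probe set with the highest mean log2 signal stood for a gene. If no array of the lower side exceeded background, its fold is "at least", set against those arrays' background or the probe set's own signal if higher. The fit was checked on simulated data.

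Names came from the platform annotation and the RefSeq table of Glycine_max_v4.0. All 8 members are named. Lipid genes were named up to 3 per direction by smallest adjusted p, and genes of like pattern were the 3 of highest r (1 for genes near background in the seed). The members, the lists and the integument and embryo markers were chosen with earlier results of these data known. Sequences are not used here. Arrays were not paired by replicate number in the main model, and the labels do not say whether equal numbers share plants or handling. Among the groups of 3, same-numbered arrays deviated together with a median r of 0.10 (-0.06 to 0.26, 5 of 9 pairs over 0.1). These values do not settle whether equal numbers are linked. Alternatives changed the offset, scaling, filter, background, fold limit, weights, trend, arrays and replicate block.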

Additional observations from a re-analysis of the deposited data

How the results depend on the processing

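The 23 called log2 differences gave 504 values under alternatives, of which 478 kept direction and call, 26 kept direction only and 0 turned. With the replicate number as a block, FAD3C in the seed coat against the filial compartments was 0.94 (adjusted p = 0.055, alternatives from 0.0013), and no other desaturase call was lost. In groups of 3, 7 of 9 arrays deviated most like their own number but not every pair did, so a link between equal numbers was not settled. FAD2-3 there fell under 2-fold with an offset of 64 (-0.78). FAD2-1A between whole seed and leaf lost its call with an offset of 1 (adjusted p = 0.19), quantile normalization (0.081), no filter (0.064) and eBayes without a trend (0.057), so 1 desaturase gene was called in each, as on leaving out any array (1 to 1). FAD2-2 in the epidermis lost its call without a trend (0.069) and with only the arrays compared (0.058). For the 8 genes not called in a comparison, 8 of 1064 values became called, among them FAD6.1 between whole seed and leaf with array weights (adjusted p = 0.039) and FAD3B in the inner integument with only the arrays compared (0.029). With no minimum fold the seed coat comparison called 5 desaturase genes and 9130 probe sets, against 3 and 5512. Whole seed against leaf called 3385 probe sets, 7030 with array weights, 6629 with only its arrays and 1674 to 2064 with an array left out. With array weights the outer integument called 3266 probe sets (1801) and the hilum 4289 (2334). Leaving out arrays gave 531 to 1790 probe sets and 0 to 3 desaturases in the endothelium, 2589 to 4815 probe sets in the inner integument, 643 to 1950 and 0 to 1 in the outer integument, 791 to 2186 and 1 to 3 in the epidermis, and 824 to 2621 and 1 to 2 in the hilum. The cause was not tested, beyond the fewer arrays. Scaling to equal medians moved the share of calls higher in the embryo proper than in the suspensor from 54.8% to 66.2%, higher in the inner integument from 40.7% to 29.3% and higher in the hilum from 47.6% to 57.7%. Signals of FAD2-1A, FAD2-3 and FAD6.1 near background limit what can be said of them in captured tissue.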
